A study of Mus musculus with 2 samples.

Results

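The genes described here code for solute carriers (SLC proteins) and ATP-binding cassette (ABC) proteins, the families that hold most of the carriers and many of the ATP-driven pumps of mammalian membranes. They were taken by symbol: every gene of the deposited table whose name begins with Slc and a digit, or is Abc with a letter from a to g and digits, apart from Abca13. This gave 133 of 7976 listed genes, 113 named Slc and 20 named Abc. RNA of untreated primary CD11b-positive mouse cells of the genotypes wt and IRF8 KO was hybridised on 2 two-colour arrays, wt with Cy5 and IRF8 KO with Cy3 on both. IRF8 is a transcription factor of myeloid and lymphoid cells, and the title asks which genes it regulates in these cells. The labels give neither the strain, age, tissue nor number of the animals, nor the allele, nor how the cells were selected, and they call the arrays biological replicates.

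An SLC protein moves its substrate across a membrane down a gradient or coupled to an ion. An ABC transporter spends ATP for the same purpose. In phagocytes, these proteins set how iron, copper and zinc leave or enter the cytosol and the phagosome, how lysosomes return amino acids and nucleosides to the cytosol, and how lipids reach the cell surface or the peroxisome. The Slc25 family serves the inner mitochondrial membrane, and the Slc35 family brings nucleotide sugars into the endoplasmic reticulum and Golgi for glycosylation. ABC proteins of the subfamily F have no membrane domain and act in translation.

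Of the 133 genes, 80 were listed on both arrays (60.2%, against 65.1% of all genes), 44 on replicate 2 only and 9 on replicate 1 only. The table lists a spot only where both channels passed a signal filter, so a carrier that either genotype hardly expresses was not analysed here. Median raw signals lay between 1652 and 2584 over the 4 channels. The median log2 ratio of IRF8 KO over wt was 0.03 on replicate 1 and -0.42 on replicate 2, over the 5192 genes on both arrays. Each array was therefore centred on its median, and every log2 ratio below is IRF8 KO over wt relative to that centre unless stated otherwise. Since wt carried Cy5 on both arrays, dye bias at a probe and a difference between genotypes cannot be told apart. No probe carried the name Irf8. Itgam, the gene of CD11b itself, had signals of 1862 (wt) and 7883 (IRF8 KO) on replicate 1 and 3527 and 15036 on replicate 2, a log2 ratio of 2.08 ± 0.07 (SD, n = 2; limma adjusted p = 0.0159). The protein by which the cells are named thus had more mRNA in IRF8 KO on both arrays. In such bulk RNA, a change in the share of a cell type and a change of RNA per cell cannot be told apart.

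Most carriers lay near the array centre, and 2 of them rose in IRF8 KO. Abcd2, which imports very long-chain fatty acids into peroxisomes, was 3.04-fold higher, and Slc31a2, a copper transporter of endosomes and lysosomes, was 2.97-fold higher. These were 2 of 80 genes (2.5%) past limma's threshold (Benjamini-Hochberg adjusted p under 0.05 over 5192 genes) in that direction, beside 2.89% of all genes. In the other direction 0 of 80 passed, beside 0.809% of all genes. Without adjustment, limma gave a p under 0.05 to 6 higher and 9 lower carriers, 18.8% of them, against 18.2% of all genes. At least 2-fold on both arrays were 3 carriers higher (3.58% of all genes) and 0 lower (1.33% of all genes). The median ratio was -0.06 over the carriers and -0.01 over all genes. Within 0.5 of the centre lay 72.5% of the carriers and 72.4% of all genes. On both arrays 23 carriers lay above the centre (28.8%, against 31.1% of all genes) and 34 below it (42.5%, against 31.1%).

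The count of lower carriers depended on how the arrays were scaled. On the deposited ratios without centring, Abca9, Abcc9, Abcg3 and Slc25a4 passed as lower (3.41% of all genes), and the same 2 genes passed as higher (2.81% of all genes). With loess within arrays, 4 passed as higher (7.34% of all genes) and 8 as lower (5.34% of all genes). The 8 were Abca3, Abca9, Abcc3, Abcc9, Abcg3, Slc25a4, Slc2a6 and Slc7a8. Their IRF8 KO signals on replicate 1 ran from 491 (Abca9) to 988 (Abcg3), so a signal minimum of 1000 left none of them to test. With that minimum, 0 of 52 carriers passed as lower, beside 131 of 3685 genes. At least 2-fold on both arrays were 1 carrier higher (2.16% of all genes) and 3 lower (2.75% of all genes) without centring, and 3 higher (3.76% of all genes) and 0 lower (1.12% of all genes) with loess. Abcd2 and Slc31a2 were called under each of these 3 scalings. An ordinary t statistic, which takes each gene's spread from its own 2 values, called 0 carriers and gave 3 of them an unadjusted p under 0.05. Carriers outside the naming rule given in the methods are named below to complete their class, and were chosen with their values known.

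**Figure D1:**
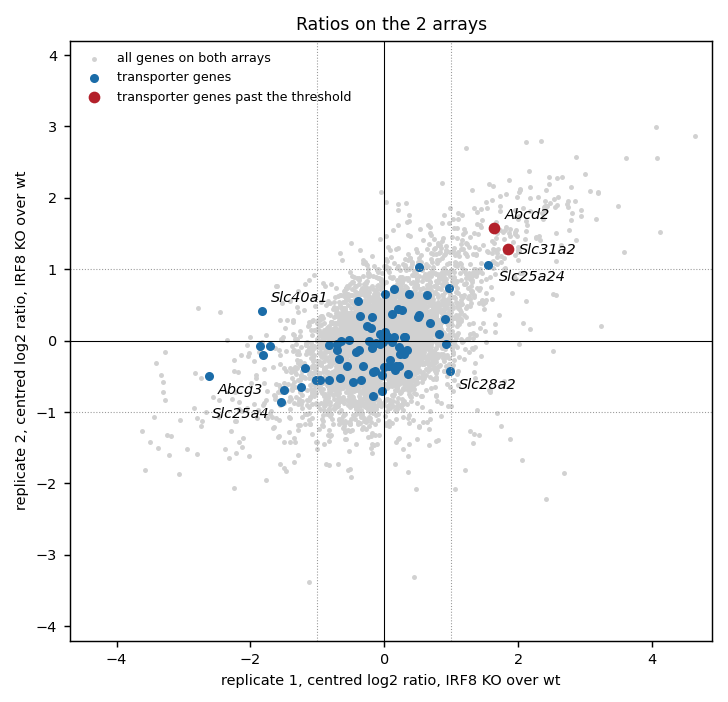
Centred log2 ratios (IRF8 KO over wt) on replicate 1 (x axis) and replicate 2 (y axis). Grey points are the 5192 genes on both arrays, blue points the transporter genes, red points the 2 past the threshold, and dotted lines mark 2-fold. Abcd2 and Slc31a2 lie beyond 2-fold on both arrays with Slc25a24, while Slc40a1 and Slc28a2 have opposite signs on the arrays.

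Abcd2 gave signals of 1130 (wt) and 3631 (IRF8 KO) on replicate 1, and of 3947 and 11480 on replicate 2. The knockout channel was the brighter one on both arrays. Its log2 ratios of 1.63 and 1.57 averaged 1.60 ± 0.04 (SD, n = 2; SE 0.25, limma adjusted p = 0.0245). The probe lies on chromosome 15 from 90982094 to 90982164 (mouse build 37, as the deposited table gives it). A second Abcd2 probe (chromosome 15, 90979505 to 90979575), listed on replicate 2 only, gave 1.32 (0.90 without centring) from signals of 884 and 2164. Its relative Abcd3, the abundant peroxisomal importer of branched-chain acyl groups, was listed on replicate 2 only, with signals of 2687 and 5072. Its ratio was 0.95 (0.52 without centring), where all genes listed on replicate 2 only had a median of 0.37. No other gene of that subfamily was listed.

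Slc31a2 gave signals of 1363 (wt) and 5108 (IRF8 KO) on replicate 1, and of 4355 and 10363 on replicate 2. The knockout was brighter on both arrays, more so on replicate 1. The log2 ratios of 1.85 and 1.28 averaged 1.57 ± 0.40 (SD, n = 2; SE 0.28, limma adjusted p = 0.0332). Slc31a1, the high-affinity copper importer of the plasma membrane and the other member of the family, gave signals of 619 and 615 on replicate 1 and of 1085 and 1130 on replicate 2. Its ratios of -0.06 and 0.09 averaged 0.02 ± 0.11. Atp7a, the copper-exporting ATPase, stood at -0.09 ± 0.27 (limma adjusted p = 0.914).

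Some neutrophil granule and cell cycle genes rose on the same arrays as these carriers. Of 16 granule markers, 9 were on both arrays, with ratios from 0.34 to 4.64 on replicate 1 and from -0.01 to 2.86 on replicate 2. Of these 9, 3 rose (2.89% of all genes), while 6 were called higher without centring (2.81% of all genes) and with loess (7.34% of all genes). Of 21 cell cycle genes, 9 were on both arrays and 7 rose, also without centring and with loess, beside the same shares of all genes. Their part in the ratios of Abcd2 and Slc31a2 was not tested.

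Slc25a24, the calcium-regulated ATP-Mg/phosphate carrier of mitochondria, had the next highest ratio. Its signals were 3256 (wt) and 9871 (IRF8 KO) on replicate 1 and 9461 and 19312 on replicate 2. It was at least 2-fold on both arrays, with 1.55 and 1.06 and a mean of 1.31 ± 0.34 (SD, n = 2; limma adjusted p = 0.0522). It did not pass, while it passed with loess (adjusted p = 0.00102) and did not pass without centring (adjusted p = 0.0771).

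**Figure D2:**
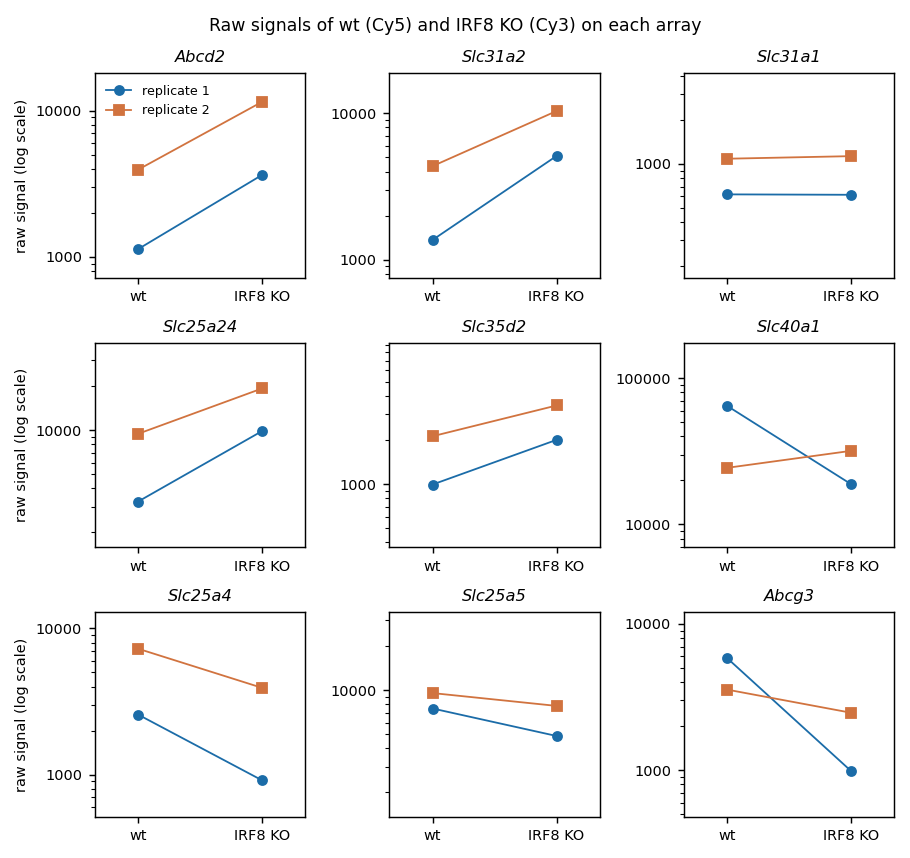
Raw signals of wt (Cy5) and IRF8 KO (Cy3) for 9 genes, on a log scale that spans the same fold range in each panel, with 1 line for each array. The lines of Abcd2, Slc31a2, Slc25a24 and Slc35d2 climb on both arrays, those of Slc25a4, Slc25a5 and Abcg3 descend, and those of Slc40a1 cross.

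Promoter sequences of 105 of the 133 genes were matched in RefSeq's table for build GRCm38.p6, which spans 250 bases before to 50 after each start; Abcd2 had no entry. They were searched on both strands for letters that IRF8 is known to bind: the ETS-IRF composite, which it occupies with PU.1 and which is GGAA followed by any 2 bases and GAAA, and the core of the interferon-stimulated response element, which is GAAA followed by any 2 bases and GAAA. The motifs can overlap in part. The composite stood in 6 of 143 carrier promoters (4.2%), against 2.72% of all 32851 promoters, and the response element core in 1 (0.699%), against 3.44%. The sequences below are shown because they belong to the copper transporter that rose, to Slc25a24, and to the carriers with the composite whose mean ratios were farthest apart among those on both arrays. They run 5′ to 3′ on the gene's strand, and capitals mark a motif, here on the reverse strand. Slc31a2 (chr4:62286179-62286478, plus strand) and Slc25a24 (chr3:109122899-109123198, plus strand) hold neither motif in this window and so no capitals. In Slc22a15 (chr3:101924404-101924703, minus strand) the composite starts 25 bases before the start, and in Slc4a8 (chr15:100761497-100761796, plus strand) 198 bases before it.
Slc31a2: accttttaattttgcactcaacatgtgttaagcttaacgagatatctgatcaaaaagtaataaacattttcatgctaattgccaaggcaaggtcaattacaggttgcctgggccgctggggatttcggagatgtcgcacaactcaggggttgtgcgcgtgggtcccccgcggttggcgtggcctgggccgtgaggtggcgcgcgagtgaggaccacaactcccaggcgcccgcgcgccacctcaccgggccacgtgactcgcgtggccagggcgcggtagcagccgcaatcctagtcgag
Slc25a24: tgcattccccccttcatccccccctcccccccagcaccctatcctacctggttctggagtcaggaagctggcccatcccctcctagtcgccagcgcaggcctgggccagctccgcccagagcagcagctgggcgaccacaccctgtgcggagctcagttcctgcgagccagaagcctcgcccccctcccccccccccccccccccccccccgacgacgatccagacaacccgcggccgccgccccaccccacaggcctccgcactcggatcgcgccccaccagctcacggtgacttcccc
Slc22a15: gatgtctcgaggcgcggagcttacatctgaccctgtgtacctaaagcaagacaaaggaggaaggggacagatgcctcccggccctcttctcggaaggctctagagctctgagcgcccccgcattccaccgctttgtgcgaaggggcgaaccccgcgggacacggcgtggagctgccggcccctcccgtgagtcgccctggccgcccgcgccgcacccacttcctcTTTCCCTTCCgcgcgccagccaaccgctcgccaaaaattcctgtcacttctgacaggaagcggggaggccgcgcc
Slc4a8: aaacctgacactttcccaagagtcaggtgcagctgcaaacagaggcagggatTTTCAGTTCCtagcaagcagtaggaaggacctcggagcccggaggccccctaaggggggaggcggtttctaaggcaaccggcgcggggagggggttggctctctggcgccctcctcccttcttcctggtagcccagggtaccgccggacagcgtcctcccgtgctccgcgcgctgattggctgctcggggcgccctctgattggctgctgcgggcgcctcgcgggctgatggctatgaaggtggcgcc
Slc22a15, an organic cation transporter family member, stood at 0.60 ± 0.43, and Slc4a8, a sodium-driven chloride-bicarbonate exchanger, at -0.42 ± 0.41. Slc7a1, the cationic amino acid importer and the other carrier on both arrays with the composite, stood at -0.06 ± 0.59. Its probes disagreed on replicate 2, where this one gave -0.47. A second probe, listed there only, gave 0.96 from signals of 872 (wt) and 1662 (IRF8 KO). Slc25a22, a mitochondrial glutamate carrier with the response element core, stood at 0.25 ± 0.19. Limma called none of these 4 carriers (adjusted p from 0.322 to 0.95, unadjusted p under 0.05 for 0 of them).

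Metal and heme carriers numbered 9 on both arrays. Past the threshold were 1 higher (Slc31a2, beside 2.89% of all genes) and 0 lower (0.809% of all genes). The counts were the same without centring (2.81% and 3.41% of all genes) and with loess (7.34% and 5.34% of all genes). An unadjusted limma p under 0.05 was given to 0 lower ones. The class median was -0.03. Slc40a1, the iron exporter ferroportin, gave signals of 64738 (wt) and 18872 (IRF8 KO) on replicate 1 but of 24397 and 31880 on replicate 2. The arrays thus went opposite ways, with wt brighter on replicate 1 and IRF8 KO brighter on replicate 2. The ratios of -1.83 and 0.42 averaged -0.71 ± 1.59 (limma adjusted p = 0.53). Its wt signal on replicate 1 was close to saturation, where a ratio can be compressed.

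Macrophage markers lay lower beside ferroportin, which red pulp macrophages express. Of 16 markers, 10 were listed and 6 were on both arrays, with ratios from -3.51 to -1.94 on replicate 1 and from -1.87 to 0.45 on replicate 2, and 2 of them, Csf1r and Hmox1, fell (0.809% of all genes). All 6 were called lower without centring (3.41% of all genes) and with loess (5.34% of all genes). Their part in the ratio of Slc40a1 was not tested. Slc11a1, the phagosomal metal transporter Nramp1, had probes that disagreed. A bright one, near the ceiling with signals from 33114 to 62661, gave 0.01 and -0.03, and a dim one, with signals from 514 to 1452, gave -0.78 and -0.23. Another dim one, on replicate 1 only, gave -0.68 from signals of 1086 (wt) and 705 (IRF8 KO). Zinc carriers on both arrays lay between -0.34 and 0.05. Slc39a1, a plasma membrane zinc importer, stood at -0.29 ± 0.19, and Slc39a13 was lowest of them and Slc39a6 highest.

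Genes of iron and heme handling moved both ways. Of 14 on both arrays, 2 rose (2.89% of all genes) and 1 fell (0.809% of all genes). Without centring 2 were called higher (2.81% of all genes) and 4 lower (3.41% of all genes). With loess 3 were called higher (7.34% of all genes) and 4 lower (5.34% of all genes). Alas1, the first enzyme of heme synthesis, rose by 1.88 ± 0.19 (limma adjusted p = 0.0185). Ncoa4, the receptor that delivers ferritin to lysosomes, rose by 1.59 ± 0.13 (limma adjusted p = 0.0252). Hmox1, which degrades heme, fell by 2.46 ± 1.48 (limma adjusted p = 0.042). The transferrin receptor Tfrc stood at 0.29 ± 0.28 and the ferritin chain Fth1 at -1.18 ± 0.01 (limma adjusted p = 0.0576).

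Mitochondrial carriers on both arrays numbered 13, with a median of -0.09 and 0 called in either direction. Limma gave 1 higher and 1 lower an unadjusted p under 0.05. Loess called Slc25a24 as higher (7.34% of all genes) and Slc25a4 as lower (5.34% of all genes). Slc25a4, an ADP/ATP carrier, was lowest, with signals of 2572 (wt) and 914 (IRF8 KO) on replicate 1 and of 7254 and 3920 on replicate 2. The wt channel was brighter on both arrays. Its ratios of -1.54 and -0.86 averaged -1.20 ± 0.49 (SD, n = 2; limma adjusted p = 0.0735), and limma called it without centring (adjusted p = 0.0115) and also after loess (0.00528). Slc25a5, the other ADP/ATP carrier on both arrays, stood at -0.47 ± 0.30, from signals of 7484 and 4856 on replicate 1 and 9541 and 7797 on replicate 2. Both ADP/ATP carriers lay below the centre on both arrays.

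The mitoferrins Slc25a37 and Slc25a28, which bring iron into mitochondria, stood at -0.07 ± 0.40 and -0.09 ± 0.24. Slc25a39, which imports glutathione, stood at -0.12 ± 0.16, the phosphate carrier Slc25a3 at -0.15 ± 0.30 (its probe matched several genes) and the citrate carrier Slc25a1 at 0.01 ± 0.05. Slc8b1, the sodium-calcium exchanger of mitochondria that the table lists as Slc24a6, gave 0.52 and 0.36. Slc25a23, a second ATP-Mg/phosphate carrier, stood at -0.46 ± 0.14, on the other side of the centre from Slc25a24. Mpc2, a subunit of the mitochondrial pyruvate carrier with no Slc symbol, gave 1.18 and 1.29 (limma adjusted p = 0.0522), the largest ratio of 13 such other carriers. None of these 13 was called. Limma gave 3 higher ones an unadjusted p under 0.05 (18.2% of all genes in either direction), and loess called 2 as higher (7.34% of all genes).

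**Figure D3:**
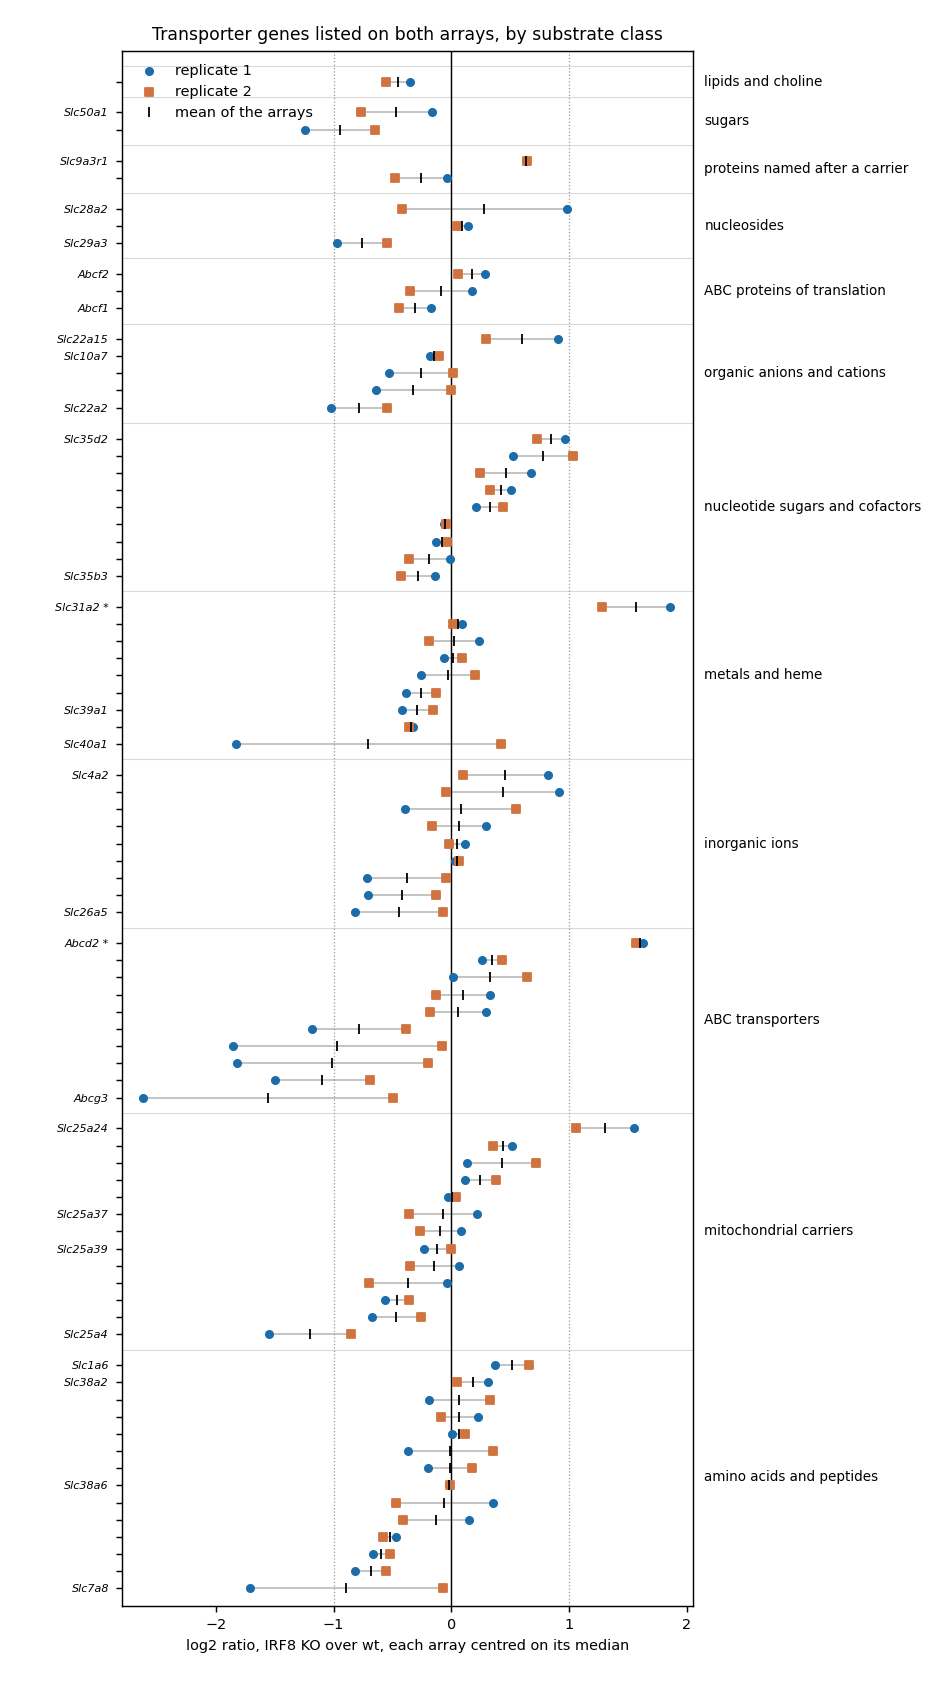
Centred log2 ratios (IRF8 KO over wt) of the 80 transporter genes on both arrays, by substrate class, with names for those chosen by the naming rule. Circles are replicate 1, squares replicate 2, ticks their mean, dotted lines 2-fold, and asterisks mark the 2 genes with a limma adjusted p under 0.05. The longest lines between the arrays belong to Slc40a1 and Abcg3.

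Carriers of nucleotide sugars and cofactors were the class with the highest median among those of 3 or more genes. Of 9 on both arrays, 5 lay above and 4 below the centre on both, and none changed sides between the arrays. Of all genes, 31.1% lay above on both, 31.1% below on both, and 37.7% changed sides. The class median was 0.32, from 0.21 on replicate 1 and 0.25 on replicate 2. None of the 9 was called in either direction, although limma gave 2 an unadjusted p under 0.05 as higher and loess called 1 higher (7.34% of all genes). Slc35d2, a Golgi nucleotide sugar transporter known in humans for UDP-N-acetylglucosamine, gave signals of 996 (wt) and 2011 (IRF8 KO) on replicate 1 and 2130 and 3455 on replicate 2. Its ratios of 0.96 and 0.73 averaged 0.85 ± 0.16 (SD, n = 2; limma adjusted p = 0.138, and 0.0416 with loess). Slc33a1, which carries acetyl-CoA into the endoplasmic reticulum, gave 0.52 and 1.04. Slc35c1, the GDP-fucose transporter on which fucosylated selectin ligands depend, gave 0.68 and 0.25. Slc35b3, a transporter of the sulfate donor PAPS, was lowest at -0.28 ± 0.20. The probes of Slc35a5 disagreed, with 0.67 and 1.16 for one and -0.25 and -0.28 for the other. Slc35a5, as the mean of these probes, was the middle gene of the 9 and is counted among the 5 above the centre. The class median of 0.32 is its value, so the rank of the class rests on these probes.

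Amino acid and peptide carriers on both arrays numbered 14, with 0 called, a median of -0.02 and 6 whose sign differed between the arrays (37.7% of all genes). Limma gave 1 of the 14 an unadjusted p under 0.05, as lower, and loess called 1 lower (5.34% of all genes). Slc7a8, a light chain of heteromeric exchangers of large neutral amino acids, was lowest at -0.89 ± 1.16. Its ratio came from replicate 1, with signals of 2815 (wt) and 891 (IRF8 KO) and a ratio of -1.71, against 1332 and 1238 and -0.07 on replicate 2. It passed with loess only (adjusted p = 0.0188). Slc3a2, the heavy chain (CD98) that such light chains need, stood at -0.13 ± 0.40.

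Lysosomal amino acid carriers lay at or below the centre. Slc15a3, a peptide and histidine transporter of lysosomes, gave -0.82 and -0.55 (limma adjusted p = 0.23), while its relative Slc15a4, needed for endosomal Toll-like receptor signalling, gave -0.20 and 0.18. Slc38a9, the lysosomal arginine sensor of mTORC1, gave -0.47 and -0.58 (limma adjusted p = 0.351). Slc38a2, the neutral amino acid importer induced by amino acid lack, stood at 0.18 ± 0.19, and Slc1a6, a glutamate transporter, was highest at 0.51 ± 0.20. Slc38a6 stood at -0.02 ± 0.01 with all 4 signals at or above 60056, where a ratio can be compressed. Among 10 genes of the amino acid response and mTORC1 nutrient sensing, 1 rose (2.89% of all genes) and 0 fell (0.809% of all genes). Limma gave 1 lower gene an unadjusted p under 0.05. As lower, 1 was called by loess (5.34% of all genes) and 1 without centring (3.41% of all genes). The riser was Mlst8, a subunit of both mTOR complexes, at 1.68 ± 0.18 (limma adjusted p = 0.0238). Ddit4, an mTORC1 inhibitor, stood at -1.83 ± 1.18 (limma adjusted p = 0.0621).

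ABC transporters on both arrays numbered 10, with Abcd2 higher (2.89% of all genes) and 0 lower (0.809% of all genes) past the threshold. Limma gave 4 lower ones an unadjusted p under 0.05, beside 18.2% of all genes in either direction. As lower, 3 were called without centring (3.41% of all genes) and 5 with loess (5.34% of all genes). The median of the 10 was -0.36, from -0.58 on replicate 1 and -0.16 on replicate 2. Abcg3, a mouse ABC protein of the subfamily of sterol and drug exporters, had the lowest ratio of all 80. Its signals were 5845 (wt) and 988 (IRF8 KO) on replicate 1 and 3557 and 2472 on replicate 2. The wt channel was brighter on both, but the ratios of -2.62 and -0.49 differed by far. Their mean of -1.55 ± 1.5 did not pass (SE 0.48, limma adjusted p = 0.14). Limma's adjusted p was 0.000542 without centring, where the SE of 0.40 ignored this gene's spread. With loess it was 0.00198 (SE 0.34).

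Other ABC genes showed the same gap between the arrays. Abcc3, an exporter of conjugated organic anions, gave -1.86 and -0.08, and Abca9, of the lipid transporter subfamily, -1.82 and -0.20. Abcc9, the sulfonylurea receptor subunit of potassium channels, gave -1.50 and -0.69, and the phospholipid transporter Abca3 gave -1.18 and -0.38. Their IRF8 KO signals on replicate 1 were dim: 565 (Abcc3), 491 (Abca9), 633 (Abcc9) and 654 (Abca3). On replicate 1 alone, 10 of the 80 carriers were at least 2-fold lower, and on replicate 2 alone none was. For all genes these shares were 5.68% and 3.93%. Abca1, the main exporter of cholesterol to apolipoproteins, was listed on replicate 2 only, with signals of 1039 and 1105. Of 15 genes of sterol efflux and the liver X receptor pathway, 0 were called by limma in either direction (unadjusted p under 0.05 for 2, both lower, and 0 called by loess or without centring), and the largest ratio was that of the lysosomal lipase Lipa at -0.88 ± 0.69. The 3 ABC proteins of translation stood at -0.31 ± 0.19 (Abcf1), -0.09 ± 0.37 (Abcf3) and 0.17 ± 0.16 (Abcf2, mean of 3 probes), with 0 called and 0 under an unadjusted p of 0.05.

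Inorganic ion carriers, 9 on both arrays, lay between -0.44 and 0.46. None passed, limma gave none an unadjusted p under 0.05, and none passed with loess or without centring. The lowest was Slc26a5, a motor protein of the anion exchanger family, at -0.44 ± 0.53, and the highest Slc4a2, a chloride-bicarbonate exchanger, at 0.46 ± 0.51. Slc20a1, a sodium-phosphate importer, gave 0.92 and -0.04. Slc4a1, the anion exchanger of red cells, was listed on replicate 1 only, with signals of 1987 (wt) and 1228 (IRF8 KO). Erythroid markers on both arrays numbered 3 of 23, with ratios from -0.88 to 0.49 on replicate 1 and from -0.91 to 0.10 on replicate 2, and their part in the ratio of Slc4a1 was not tested. Of 17 ATP-driven ion pumps, 0 were called. Limma gave 5 an unadjusted p under 0.05, all higher (18.2% of all genes in either direction), and loess called 3 higher (7.34% of all genes). The highest was Atp6ap2, an accessory subunit of the vacuolar proton pump, at 1.08 ± 0.48.

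Smaller classes gave no call by limma on the centred arrays. An unadjusted limma p under 0.05 was given to 1 nucleoside, 1 organic ion and 1 sugar carrier, each lower. Slc29a3, the nucleoside transporter of lysosomes, gave signals of 3226 (wt) and 1710 (IRF8 KO) on replicate 1 and 7428 and 4964 on replicate 2. It was below the centre on both arrays, at -0.76 ± 0.30 (limma adjusted p = 0.192). Slc28a2, a concentrative nucleoside transporter whose probe matched several genes, gave 0.98 and -0.42. Both sugar carriers on both arrays lay below the centre: Slc2a6, a hexose transporter of lysosomes, at -1.24 and -0.65, and Slc50a1, of the SWEET family, at -0.17 and -0.77. Slc2a6 passed with loess (adjusted p = 0.0165). Slc22a2, an organic cation transporter, was lowest of 5 carriers of organic ions at -0.78 ± 0.34 (limma adjusted p = 0.184). Slc10a7 stood at -0.14 ± 0.06 with signals from 54685 to 62095, close to the scanner's ceiling.

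Slc22a15 was measured by several probes, whose centred ratios differed in size but not in direction. The probe on both arrays gave 0.91 and 0.30. The other probes, on replicate 2 only, gave 0.81, 1.11 and 1.81, the last from signals of 1219 (wt) and 4187 (IRF8 KO). Without centring, the replicate 2 ratio was -0.13 for the probe on both arrays and 0.38, 0.69 and 1.39 for the others. Slc9a3r1, a scaffold protein that binds carriers and is none itself, gave 0.63 and 0.65 (limma unadjusted p = 0.0409, adjusted p = 0.254). Of 7 other genes taken as partners and chaperones of carriers, 0 were called (unadjusted limma p under 0.05 for 1, and 0 called by loess or without centring). Among them, Ndrg1 had the largest ratio at 0.91 ± 0.27. This list shares Tfrc with the iron genes and with the erythroid markers.

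Carriers listed on replicate 2 only lay mostly above that array's centre, as did other genes listed there alone. Of 44, 39 were above it, beside 76.9% of all 2386 such genes. Their median ratio was 0.39, against 0.37 for all genes on replicate 2 only, and after loess it was 0.11 against 0.02. Genes listed on that array alone were dimmer, with a median wt signal of 1204 against 3849 for probes on both arrays. At least 2-fold higher were 5 of the 44, beside 14.1% of all genes on replicate 2 only. The highest was Slc39a11, a zinc importer family member (chromosome 11, 113106440 to 113106510), with signals of 744 (wt) and 3429 (IRF8 KO). It was 4.71-fold higher (log2 2.24, and 2.07 after loess), the only carrier past 4-fold there, beside 2.68% of all genes on replicate 2 only. The others were Abcc5 (1.56), Slc6a12 (1.36) and Abcc4 (1.21), and Slc2a3, the high-affinity glucose transporter (1.03, from signals of 2900 and 5774). After loess they stood at 1.08, 1.16, 0.62 and 1.08, so that Abcc4 was no longer 2-fold higher. The wt signals of Abcc5 and Abcc4 were dim, at 620 and 629. These values rest on 1 array each and have no replicate check. Of the 9 carriers on replicate 1 only, 8 lay below its centre, and 1 above it, beside 19.4% of all genes listed there alone.

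**Figure D4:**
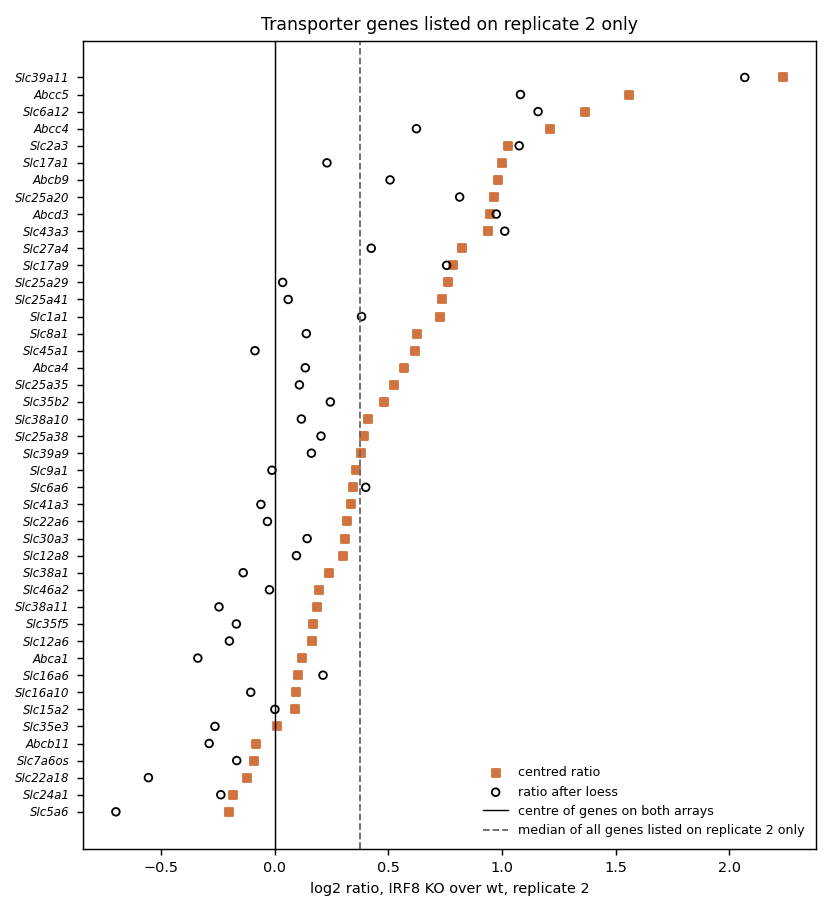
Log2 ratios (IRF8 KO over wt) on replicate 2 of the 44 transporter genes listed on that array only. Squares are centred ratios, open circles the ratios after loess, and the dashed line is the median of all 2386 genes listed on replicate 2 only, at 0.37. Most squares lie to the right of 0, and Slc39a11 lies farthest out under both scalings.

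Carriers were also grouped by compartment through the deposited GO terms. The median ratio was -0.07 for 15 carriers with a term of the inner mitochondrial membrane, -0.03 for 7 of lysosomes or endosomes, 0.05 for 14 of the Golgi or endoplasmic reticulum and -0.03 for 30 of the plasma membrane. Over all genes with these terms the medians were 0.04, 0.03, 0.05 and 0.01. Abcd2 was the only carrier on both arrays with a peroxisomal term, and the 45 genes with that term had a median of 0.10.

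**Figure D5:**
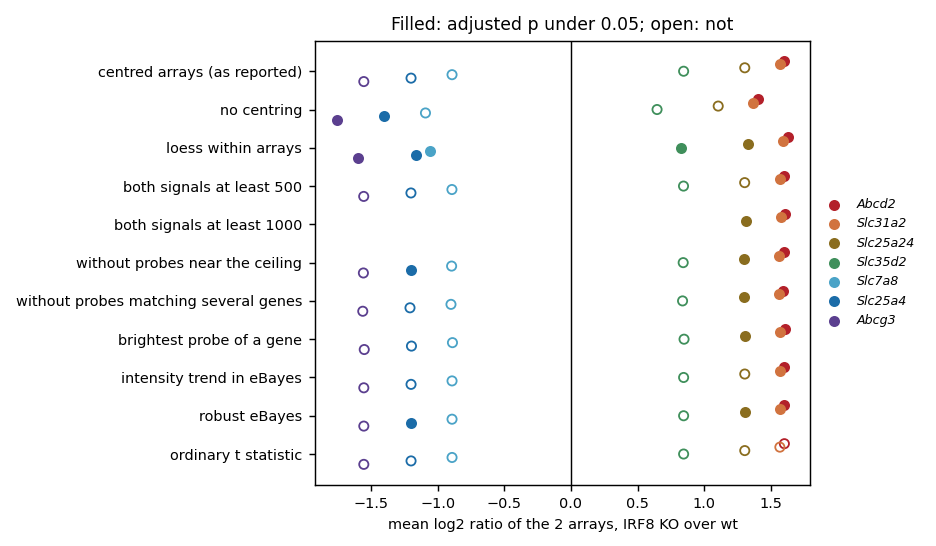
Mean log2 ratio (IRF8 KO over wt) of 7 transporter genes under each way of processing the arrays, with filled points for an adjusted p under 0.05. Abcd2 and Slc31a2 are filled in every row apart from the ordinary t statistic, while Abcg3 and Slc25a4 change between filled and open.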

How the data were processed

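CD11b-positive cells of wt and IRF8 KO mice were compared on 2 arrays. The deposited log2 values are ratios of Cy5 over Cy3 that the authors normalized by the 50th percentile, per the file headers. Raw intensities stand beside them, as mean minus median background of GenePix scans, and per the file headers the authors' filter kept a spot only with a signal of 100 or more and a signal-to-background ratio of 1 or more in each channel, taking the strongest spot of a well. The arrays were matched to the labels by name; the smaller deposited log2 table exchanges them, which affects no mean or test.

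Signs were changed so that ratios read IRF8 KO over wt, as the labelled dyes give it, probes on both arrays were averaged by gene, and each array was centred. Genes were tested with limma 3.58.1 (R 4.3.3; intercept, eBayes, two-sided, Benjamini-Hochberg over 5192 genes, threshold 0.05), checked on simulated data. The prior degrees of freedom were 5.89 with centring, 24.2 with loess and infinite without centring, beside 1 residual degree per gene. For a single gene, an exact sign-flip test of 2 arrays cannot go below p = 0.5. Arrays labelled as replicates may share animals, so p-values measure only the spread between these samples. The number of arrays limits precision.

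Symbols were updated through Entrez IDs in RefSeq (1 carrier, 836 probes in all). Substrate classes follow the family number. Named carriers are those past the threshold, those 2-fold on both arrays, the highest and lowest of each class of 3 or more, the 10 with the highest signals, and those on 1 array past 4-fold. Of the counted carriers, 1 is not reported by name here. The members and lists were chosen with earlier results of these data known. Alternatives were no centring, loess (span 0.3), signal minima of 500 and 1000, no probes at 60000 or more, no probes matching several genes, the brightest probe, trended or robust eBayes, an ordinary t statistic, the smaller table and single arrays.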

Additional observations from a re-analysis of the deposited data

How the results depend on the processing

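Abcd2 and Slc31a2 passed under 10 of the 11 alternatives with a test. Among the 10, the smaller table only exchanges the arrays, so it could not change the result and is no separate check. The exception was the ordinary t statistic, with 0 carriers called higher, where their adjusted p was 0.538 and 0.648. Without centring, 4 carriers passed as lower, and 1 was 2-fold higher and 3 were 2-fold lower on both arrays. With loess, 4 carriers passed as higher and 8 as lower. Robust eBayes and leaving out probes near the ceiling each called 1 lower, Slc25a4 (adjusted p = 0.0496 and 0.0488). Slc25a24 passed under 6 alternatives, with adjusted p from 0.00102 to 0.0412. Over all genes, 150 were higher and 42 lower with centring. Without centring 146 were higher and 177 lower, with loess 381 and 277, and by the ordinary t statistic 0 and 1. Lower calls numbered 131 with signals of at least 1000, a minimum added after seeing the data since few deposited signals are under 500, 66 with the brightest probe, 81 with robust eBayes and 83 without probes near the ceiling. The calls gained without centring include the offset of -0.42 on replicate 2 and rest on 1 SE of 0.40 for all genes. With loess, limma's prior degrees of freedom were 24.2 in place of 5.89. The part of scaling and of this pooling in the changes was not tested. On single arrays, 3 to 4 carriers were 2-fold higher and 0 to 10 lower, and the carriers' median lay between -0.06 and -0.03. No called carrier changed sign under any alternative. Each ratio is a difference between wt and IRF8 KO within an array, so the test is paired by array, and a further replicate block could not be fitted. Spots near the filter limit and near the scanner's ceiling carry the least certain ratios.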
